A study of Mus musculus with 36 samples.

Results

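To ask which transcripts moved back toward the silenced level between 6 and 10 h of sustained depolarization and which kept moving away from it, the 2 RNA-seq libraries of neurons kept in KCl for 10 h were compared directly with the 2 libraries of neurons kept in KCl for 6 h. The libraries were chosen by labelled treatment and time alone, and are 4 of the 18 RNA libraries in a series of 36 samples that also holds ATAC-seq. All groups were primary cortical neurons of CD-1 mouse embryos (embryonic day 15) kept for 7 days in vitro and silenced with AP-5 (100 µM), which blocks NMDA receptors, plus TTX (1 µM), which blocks voltage-gated sodium channels. Stimulated neurons were silenced for 2 h and then received 55 mM KCl, which depolarizes the membrane, for 1, 6 or 10 h, or 10 ng/ml BDNF, a neurotrophin that signals through TrkB, for the same times. The 6 control libraries, 2 at each time, were never stimulated and had been in AP-5 and TTX for 3, 8 or 12 h in all when collected. The labels do not tie the libraries of a group to separate litters or animals, so p-values measure the spread between these samples, which may be technical, and transcripts of glia and dividing cells were present besides those of neurons. Polyadenylated RNA was sequenced, and values are normalised reads, that is, reads per gene divided by a size factor per library.

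Raised extracellular potassium holds the membrane depolarized and lets calcium enter through voltage-gated channels. Calcium then acts through CaM kinases, calcineurin and the MAP kinase pathway on transcription factors such as CREB, SRF and MEF2, and these induce immediate early genes (IEGs) without new protein synthesis. IEG transcripts are short-lived, many encode transcription factors of the AP-1, Egr and Nr4a families, and these in turn act on late-response genes that encode secreted factors, receptors, channels and synaptic proteins.

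The KCl libraries held 13.3 and 11.5 M reads at 6 h (libraries A and B) and 10.4 and 11.6 M reads at 10 h, within the range of all RNA libraries (8.51 to 36.7 M). Library B of KCl 6 h stood apart. The predicted gene Gm42418 took 3.26% of its reads (435267 normalised reads), against 15630 normalised reads in library A of KCl 6 h and 5055 to 50575 in the other 16 libraries. The median absolute log2 difference between libraries A and B was 0.217 at KCl 6 h, 0.151 at KCl 10 h, and 0.0998 to 0.157 in the other groups. Counts of calls are therefore also given with weights for library quality or without this library where that moved them by more than 1.5 times. The weights came out equal for libraries A and B of each stimulated group (0.4 for both at KCl 6 h, 0.787 for both at KCl 10 h). They thus lowered the KCl 6 h group as a whole and did not set its library B below its library A. A call is said to hold where the gene was called in the fit of all 18 libraries, with library weights, and again when each of the 4 KCl libraries of 6 and 10 h was left out in turn.

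Of 16209 genes tested, 3651 (22.5%) were called between KCl 6 h and KCl 10 h (limma, Benjamini-Hochberg adjusted p below 0.1). More genes were higher at 10 h (2085, 12.9% of those tested) than lower (1566, 9.66%). Most changes were small: the median absolute log2 change of called genes was 0.44, and 172 genes rose and 139 fell by 2-fold or more. In bulk RNA, fewer cells of a type and less RNA per cell cannot be told apart. The count depended on the libraries. It was 1107 (6.83%) with library weights (739 higher and 368 lower), 1960 without library B of KCl 6 h, 5044 without its library A, 1178 without library A of KCl 10 h and 3324 without its library B. In the main fit the spread was pooled over all 18 libraries. With only the 4 KCl libraries of 6 and 10 h in the fit, 359 genes were called. Calls held for 760 genes, 499 higher and 261 lower at 10 h, and the genes described at length are taken mainly from these. The silenced controls gave 0 calls (0.0%) between the same times with limma (249 genes at an unadjusted p below 0.05, and 0 calls with edgeR and with DESeq2), and BDNF gave 35 (0.216%).

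Each called gene was placed by its level at 6 h against the 6 controls. At 6 h, 5417 genes were higher (33.4%) and 5362 lower (33.1%) than in controls, and at 10 h 4705 were higher (29.0%) and 4569 lower (28.2%). Of the called genes, 1195 returned from above (higher than controls at 6 h, then falling), with a median log2 change of -0.36, and 1671 returned from below (lower at 6 h, then rising), with a median of 0.52. Only 132 genes rose further (higher at 6 h and rising again; median 0.42) and 107 fell further (median -0.42). Another 282 rose and 264 fell without a call at 6 h (medians 0.41 and -0.38). The 6 h libraries enter both axes of this sorting, so the sizes of the classes are a description and carry no test. Return was partial by call for many genes: of the genes returning from above, 639 were still called higher than controls at 10 h, 503 were not called, and 53 were called lower. Of those returning from below, 938 were still lower, 678 were not called and 55 were higher. The median share of the 6 h log2 difference from controls left at 10 h was 35.1% from above and 35.2% from below. It was below 50% for 833 and 1216 genes. Calls held for 225 genes returning from above, 447 returning from below, 21 rising further and 14 falling further.

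**Figure D1:**
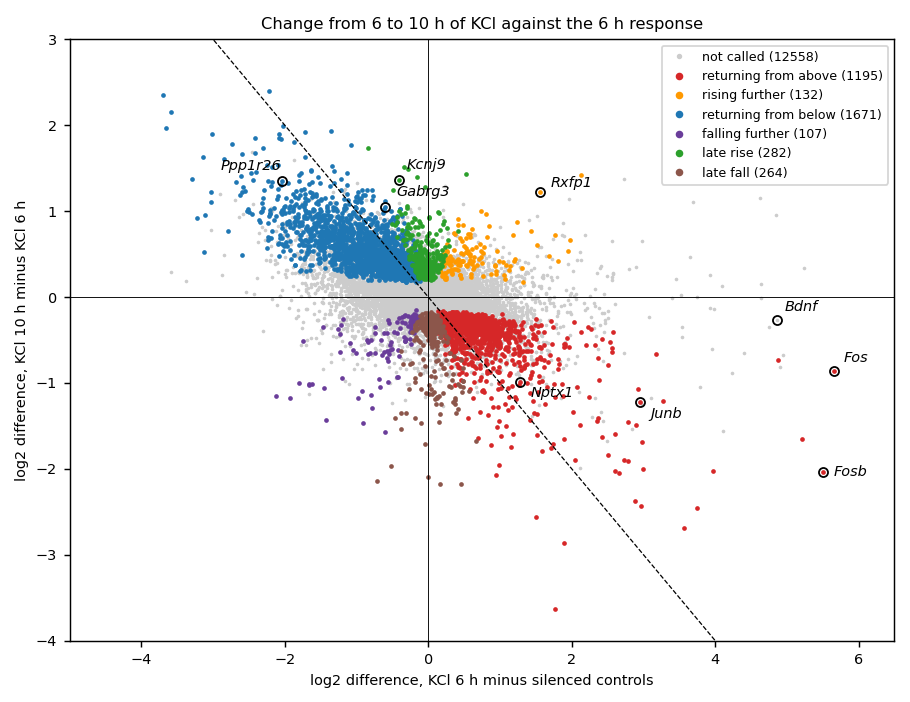
Change from 6 to 10 h of KCl (y axis, log2 difference) against the 6 h response over silenced controls (x axis, log2 difference) for the 16209 genes tested, coloured by class with the number of genes, and with 9 genes circled. On the dashed line the 10 h level equals the control level; most red and blue points lie between that line and zero, and the classes rising further (132 genes) and falling further (107 genes) are small. The 6 h libraries enter both axes.

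The share of the 6 h response left at 10 h was computed for genes called and at least 2-fold from controls at 6 h, on the log2 scale. The median share was 79.6% over 737 induced genes (quartiles 58.0% and 100%), with 140 genes below 50% and 185 above 100%. It was lower for repressed genes. Over 1365 repressed genes the median was 63.7% (quartiles 47.5% and 82.6%), with 402 below 50% and 165 above 100%. Genes picked at 6 h carry the 6 h libraries' own error, so the reverse was also computed: genes picked at 10 h had, at 6 h, a median of 93.5% of their 10 h response where induced (546 genes) and 101% where repressed (719 genes). Under BDNF the same shares were 83.0% (273 induced genes) and 76.8% (239 repressed genes) when picked at 6 h, and 110% (210) and 76.4% (223) when picked at 10 h.

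The KCl 1 h libraries enter neither side of the comparison. Calls at 1 h and from 6 to 10 h came from the same fit and share its estimate of spread for each gene, so the calls are not fully independent. At 1 h, 4298 genes were higher than controls (26.5%) and 4565 lower (28.2%). Genes already high at 1 h tended to fall from 6 to 10 h: 827 of 4298 fell (19.2%) and 238 rose (5.54%). Genes low at 1 h went the other way, with 885 of 4565 rising (19.4%) and 292 falling (6.40%), and of the 7346 genes not called at 1 h, 962 rose (13.1%) and 447 fell (6.08%). The lean was steepest for the 482 genes at least 2-fold higher at 1 h, of which 162 fell (33.6%) and 5 rose (1.04%), with a median log2 change of -0.42. Of the 898 genes at least 2-fold lower at 1 h, 158 rose (17.6%) and 24 fell (2.67%).

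Of 30 immediate early transcription factors tested, 13 fell and 1 rose (Jun, log2 change 0.30), with a median log2 change of -0.39 against 0.001 over all genes tested. Over all genes 12.9% rose and 9.66% fell, the shares beside which the count of each list stands. The fall held for 7 of them (Fosb, Junb, Fos, Nr4a1, Ier2, Egr1 and Nr4a3), 7 fell with library weights, and 10 fell without library B of KCl 6 h. The rise of Jun (limma adjusted p = 0.037) was not called without library A of KCl 10 h (0.2) or library B of KCl 6 h (0.48). The promoters of 4 IEGs that fell and of Npas4, which was not called, are shown because the core of the cAMP response element that CREB binds, TGACG, or CGTCA on the other strand, was frequent in the list. The 250 bases before the RefSeq start of 5 IEGs and, for contrast, of 2 genes that rose are given 5′ to 3′ on the gene's strand (RefSeq, GRCm38.p6), with each core in capitals.
Fosb (chr7:19310046-19310295, minus strand): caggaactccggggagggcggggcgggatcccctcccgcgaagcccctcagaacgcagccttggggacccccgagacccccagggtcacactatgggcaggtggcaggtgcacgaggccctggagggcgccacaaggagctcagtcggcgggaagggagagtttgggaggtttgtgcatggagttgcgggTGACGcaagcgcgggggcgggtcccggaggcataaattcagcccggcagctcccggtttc
Junb (chr8:84978749-84978998, minus strand): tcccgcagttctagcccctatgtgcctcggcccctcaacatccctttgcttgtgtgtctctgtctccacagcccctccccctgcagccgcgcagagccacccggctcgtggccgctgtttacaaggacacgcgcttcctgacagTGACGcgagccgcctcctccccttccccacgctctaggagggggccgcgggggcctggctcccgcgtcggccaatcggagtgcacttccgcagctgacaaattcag
Fos (chr12:85473640-85473889, plus strand): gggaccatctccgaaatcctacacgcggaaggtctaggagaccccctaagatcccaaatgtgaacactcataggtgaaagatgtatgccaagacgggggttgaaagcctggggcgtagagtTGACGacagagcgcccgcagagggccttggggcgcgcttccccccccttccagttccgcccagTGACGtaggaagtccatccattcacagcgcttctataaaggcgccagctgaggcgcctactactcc
Nr4a1 (chr15:101266596-101266845, plus strand): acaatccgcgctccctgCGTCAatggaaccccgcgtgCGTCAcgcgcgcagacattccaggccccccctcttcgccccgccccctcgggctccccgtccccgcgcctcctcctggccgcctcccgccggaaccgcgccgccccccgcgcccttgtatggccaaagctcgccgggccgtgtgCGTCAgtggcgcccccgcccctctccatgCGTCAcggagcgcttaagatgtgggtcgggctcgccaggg
Npas4 (chr19:4989972-4990221, minus strand): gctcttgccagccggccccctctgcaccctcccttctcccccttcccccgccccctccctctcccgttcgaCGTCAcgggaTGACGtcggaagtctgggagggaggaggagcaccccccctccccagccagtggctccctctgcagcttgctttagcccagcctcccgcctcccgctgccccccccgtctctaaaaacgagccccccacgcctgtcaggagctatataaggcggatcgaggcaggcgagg
Gabrg3 (chr7:57387216-57387465, minus strand): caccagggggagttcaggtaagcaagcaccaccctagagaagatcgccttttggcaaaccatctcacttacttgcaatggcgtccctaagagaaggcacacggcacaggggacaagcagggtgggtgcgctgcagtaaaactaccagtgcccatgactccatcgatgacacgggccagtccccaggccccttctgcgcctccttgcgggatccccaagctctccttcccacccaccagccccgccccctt
Ppp1r26 (chr2:28446820-28447069, plus strand): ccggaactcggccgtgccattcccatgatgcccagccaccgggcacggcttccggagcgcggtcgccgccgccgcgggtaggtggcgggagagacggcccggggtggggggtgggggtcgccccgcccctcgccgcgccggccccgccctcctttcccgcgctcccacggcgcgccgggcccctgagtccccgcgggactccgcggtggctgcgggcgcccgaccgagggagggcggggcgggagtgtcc

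In the window from 250 bases before to 50 after the start, searched on both strands, the core lay in 17 of the 22 IEGs with a promoter entry (77.3%), against 34.8% of the 10539 tested genes with one and 23.0% of all 27025 RefSeq promoters. It lay in 2 of 12 genes of GABA-A receptors and GABA synthesis (16.7%) and 3 of 13 glutamate receptors (23.1%), but also in 7 of 16 cholesterol synthesis genes (43.8%), 14 of 26 proteasome genes (53.8%), 8 of 13 heat shock genes (61.5%) and 10 of 15 postsynaptic effectors (66.7%). In the stretches printed, Fosb held 1 core, 60 bases before the start, Junb 1, Fos 2, Nr4a1 4 and Npas4 2, and Gabrg3 and Ppp1r26 held 0. Over whole classes the contrast was small: 40.1% of 826 genes returning from above held the core and 5.33% the full palindrome of the element, against 35.1% and 3.27% of 1223 genes returning from below and 34.8% and 3.57% of all tested. A match is only a run of letters in this window.

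Fosb, an AP-1 subunit, fell most among them (ENSMUSG00000003545; chr7:19302696-19310051, minus strand, GENCODE M21 on GRCm38). It lay at 5421 and 6088 normalised reads at KCl 1 h, then 344 and 360.0 at 6 h, then 75.8 and 94.8 at 10 h, against 4.93 to 10.8 in the 6 controls. All 4 groups stood apart without overlap. The change from 6 to 10 h was -2.04 ± 0.27 (log2, SE; n = 2 against 2; limma adjusted p = 5.4e-05), and 62.9% of the 6 h response was left. Junb, another AP-1 subunit (chr8:84974484-84978718, minus strand), went from 3586 and 3033 at 1 h to 669 and 489 at 6 h and 259 and 232 at 10 h (controls 60.1 to 84.6; log2 change -1.22 ± 0.16, adjusted p = 6.8e-05). Fos, the founding AP-1 gene (chr12:85473890-85477273, plus strand), stood at 1727 and 1809 at 6 h and 948 and 995 at 10 h, still far above the controls (25.1 to 43.3). Its log2 change was -0.86 ± 0.18 (limma adjusted p = 0.0031), so that 84.8% of its 6 h response was left.

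The orphan nuclear receptor genes Nr4a1 and Nr4a3 fell too. Nr4a1 was at 1684 and 1681 at 6 h and 1045 and 985 at 10 h (controls 50.9 to 64.4; log2 change -0.73 ± 0.14, limma adjusted p = 0.0012). Nr4a3 went from 5997 and 5858 to 4716 and 4256 (controls 908 to 1054; adjusted p = 0.011). Egr1, a zinc-finger factor induced by SRF, ended at or under the low edge of the controls. It was at 1590.4 and 1838 at 1 h, then 312 and 266 at 6 h, then 197 and 175 at 10 h, against 194 to 247 in controls (10 h minus controls -0.26, limma adjusted p = 0.025). Npas4, a neuron-specific factor tied to calcium entry, fell in value from 1908 and 1735 to 1182 and 1132 (log2 change -0.65 ± 0.34) but was not called (limma adjusted p = 0.22), and remained above all controls (60.1 to 114). Egr3 was called with all libraries (97.3 and 69.5 at 6 h, 52.6 and 39.2 at 10 h; adjusted p = 0.043) but not with weights (0.24), nor without library B of KCl 10 h (0.22) or library A of KCl 6 h (0.19).

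**Figure D2:**
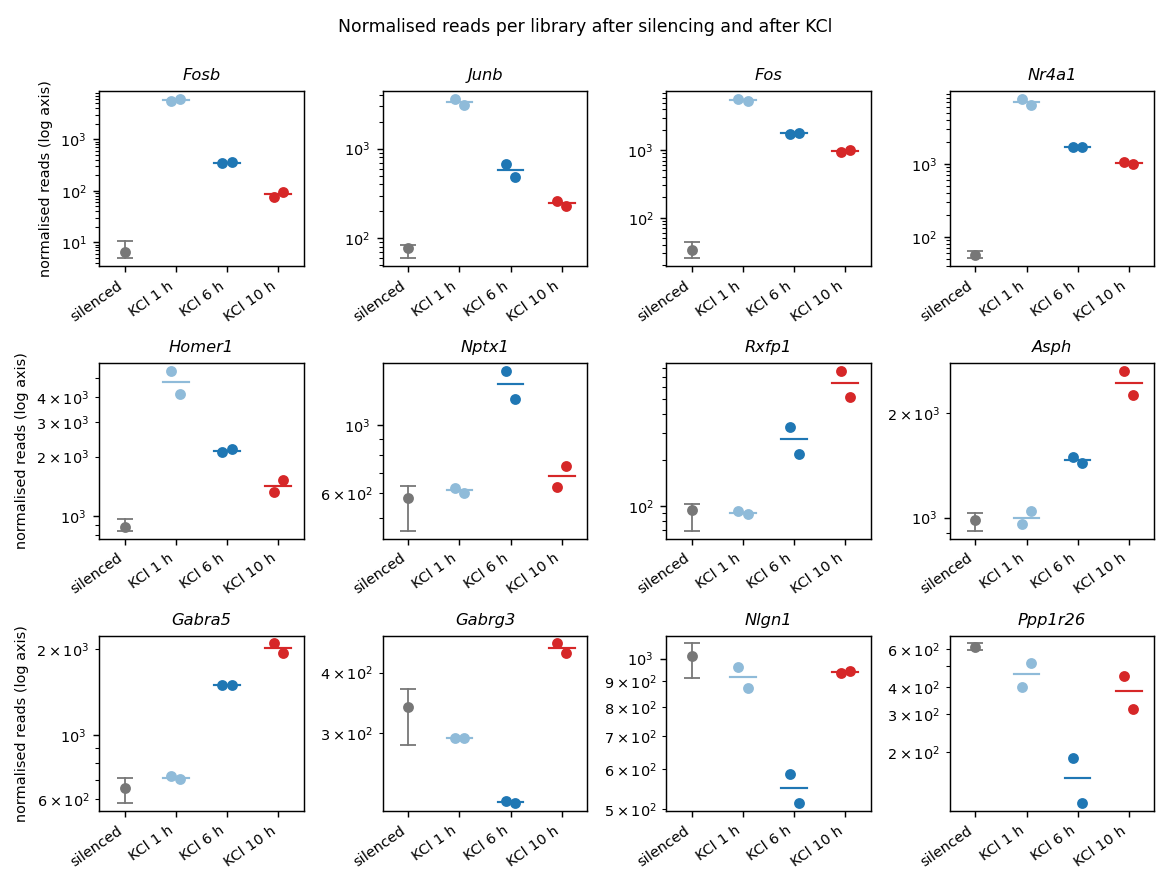
Normalised reads (log axis) of 12 genes in silenced controls (grey; point at the median and bar from lowest to highest of 6 libraries) and in the 2 libraries each of KCl 1 h, 6 h and 10 h (points; line at their mean). Fosb, Junb, Fos, Nr4a1 and Homer1 peak at 1 h and step down, Nptx1 peaks at 6 h, Rxfp1, Asph and Gabra5 climb at 6 and again at 10 h, and Gabrg3, Nlgn1 and Ppp1r26 dip at 6 h and rise again, Ppp1r26 to below the controls.

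Of 19 postsynaptic effectors of plasticity, 7 fell and 2 rose, with a median log2 change of -0.40 (over all genes, 9.66% fell). With library weights 3 fell and 0 rose, without library B of KCl 6 h 5 fell and 1 rose, and only Homer1 held. Homer1, whose short activity-induced form loosens the scaffold of metabotropic glutamate receptors (chr13:93299635-93405129, plus strand), was at 2106 and 2191 at 6 h and 1323 and 1515 at 10 h (controls 843 to 962; log2 change -0.60 ± 0.10, limma adjusted p = 0.00045). Gene-level reads do not separate its short and long forms. Arc, which promotes removal of AMPA receptors, went from 118 and 89.1 to 73.3 and 65.3 (controls 25.1 to 39.4; adjusted p = 0.048), but was not called with weights (0.24), without library A (0.13) or B (0.19) of KCl 10 h, or without library A of KCl 6 h (0.24). The sorting receptors Sorcs1 and Sorcs3 went the other way (log2 changes 0.41 and 0.43) and were higher than controls at both times. Without library A of KCl 10 h neither was called (limma adjusted p = 0.19 and 0.44), nor was Sorcs3 without library B of KCl 6 h (0.36).

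Nptx1, a neuronal pentraxin that clusters AMPA receptors at synapses (chr11:119538719-119547753, minus strand), peaked at 6 h. It was not called at 1 h (625 and 603 against 454 to 633 in controls), stood at 1500.3 and 1221 at 6 h and came back to 631 and 735 at 10 h (log2 change -0.99 ± 0.13, limma adjusted p = 6.8e-05). At 10 h 22.6% of the 6 h response was left. The same gene fell under BDNF, from 2427 and 2515 at 6 h to 1225 and 1157 at 10 h (log2 change -1.05). Among secreted late-response factors as a group, 5 of 29 fell and 3 rose, 3 fell and 0 rose with weights and again without library B of KCl 6 h, and 2 falls held (Nptx1 and the glycoprotein hormone Stc1, -0.55). Feedback inhibitors of the MAP kinase pathway had 3 falls and 1 rise among 18, and 2 falls and 0 rises with weights and again without library B of KCl 6 h. Errfi1, which restrains the EGF receptor, went from 692 and 698 to 368 and 426 (controls 261 to 299; adjusted p = 0.003) and held. In the CREB, CRTC, SIK and cAMP group, 5 of 21 fell and 2 rose (2 and 0 with weights, 5 and 0 without library B of KCl 6 h), and the falls of Sik1 (1206 and 1344 to 964 and 821, controls 448 to 513), a kinase that keeps CRTC coactivators out of the nucleus, and of Crebbp (1167 and 1173 to 836 and 802, controls 688 to 885), the CREB-binding acetyltransferase, held.

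Several strongly induced genes showed no called change. Bdnf lay at 1704 and 1721 at 6 h and 1547 and 1318 at 10 h, against 38.5 to 65.1 in controls (log2 change -0.26 ± 0.23, limma adjusted p = 0.48). Vgf, a neuropeptide precursor, lay at 6736 and 5310.1 and then 7497 and 5672 (controls 251 to 481; adjusted p = 0.86). Scg2, a granin, and Pcsk1, a prohormone convertase, were likewise not called, with log2 changes of 0.29 and -0.01. Nptx2, a pentraxin related to Nptx1, had a lower value at 10 h (1185 and 916, then 827 and 839.7; adjusted p = 0.17) that was called only without library B of KCl 6 h (0.082). Acan, the aggrecan core protein of perineuronal nets, differed more between libraries of a time than between times (470.0 and 258 at 6 h, 507 and 297 at 10 h). Among repressed genes, Arrdc3, an alpha-arrestin, was at 580.1 and 683 and 648 and 644 against 3113 to 3738 in controls, and 98.5% of its response was left. Txnip, an alpha-arrestin that lowers glucose uptake, was at 60.0 and 113 and 84.3 and 117 (controls 519 to 663), not called with all libraries (adjusted p = 0.41) but called without library B of KCl 6 h (0.011).

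In the amino acid and Atf4 group 7 of 26 genes fell, all returning from above, and 0 rose, with a median log2 change of -0.06 (over all genes, 9.66% fell). With library weights 4 fell, without library B of KCl 6 h 6 fell, and 3 held. Slc38a2, a transporter of neutral amino acids (chr15:96687392-96699730, minus strand), was at 8078 and 9732 at 6 h and 5519 and 6672 at 10 h (controls 2227 to 2524; log2 change -0.55 ± 0.09, limma adjusted p = 0.0005). Slc7a1, a transporter of cationic amino acids, went from 2802 and 2902 to 2107 and 2128 (controls 969.7 to 1122), and Sesn2, a stress-induced inhibitor of mTORC1, from 1074 and 984 to 706 and 746 (controls 369 to 490.5). Chaperones of the endoplasmic reticulum split. Herpud1, a degradation factor, returned from above (986 and 1227 to 705 and 770.0; adjusted p = 0.0009), while Sdf2l1 (108 and 111 to 213 and 157) rose from below the control range (148 to 191), with 5 rises and 3 falls among 24, and 4 rises and 1 fall with weights and again without library B of KCl 6 h. Of 17 cytosolic heat shock genes 3 fell and 0 rose (1 fell with weights, 2 without library B of KCl 6 h), and the fall of Hspb8, a small heat shock protein, held (110.1 and 123 to 37.9 and 52.3, controls 29.4 to 63.7).

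Of 26 mRNA decay genes 11 fell and 1 (Parn, a deadenylase, 0.46) rose, with a median log2 change of -0.20 (over all genes, 9.66% fell). With library weights 5 fell and 0 rose, and without library B of KCl 6 h 7 fell and 1 rose. Parn was not called without library A of KCl 10 h (0.49) or library A of KCl 6 h (0.11). Falls held for Elavl1, which stabilizes AU-rich transcripts (1416 and 1807 to 1140.4 and 1234), Rc3h2, a Roquin paralog (1671 and 1783 to 1349 and 1383), and Khsrp, which promotes decay of AU-rich transcripts (3049 and 2929 to 2522 and 2253). The group thus holds factors of both roles. In the apoptosis and p53 group 7 of 27 fell and 2 rose, 3 fell and 1 rose with weights, and 3 fell and 2 rose without library B of KCl 6 h. The pro-apoptotic BH3-only genes Bcl2l11 (197 and 225 to 144 and 142, controls 260.1 to 351) and Hrk (529 and 609 to 430.2 and 415, controls 1163 to 1431) fell further below controls and held. Clock genes had 4 falls and 2 rises among 17, 0 falls and 1 rise with weights, and 2 of each without library B of KCl 6 h. Among them Per3 held, rising from 81.6 and 70.6 to 122 and 151 (controls 177 to 219.8; limma adjusted p = 0.00096), while Per2 was lower (653 and 598 to 494 and 468; adjusted p = 0.024) but was not called with weights (0.17) or without library B of KCl 10 h (0.103).

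Calls in some groups rested on library B of KCl 6 h. Of 81 cytosolic ribosomal protein genes 22 fell and 1 rose with all libraries, and 0 were called without that library (2 fell with weights). Their summed level was 87373 and 109558 normalised reads in libraries A and B of KCl 6 h, and 81804 and 88841 at 10 h. Library B of 6 h thus stood above the other KCl libraries of these times, and all of them lay above the controls (67020 to 75001). Of 63 subunits of respiratory complexes I to IV 14 fell and 2 rose, and without that library 0 fell and 1 rose (1 fell with weights). Synaptic scaffold and adhesion genes had 6 rises and 2 falls among 36 with all libraries and 2 rises and 5 falls without it, and axon guidance genes 11 and 7 among 46 with it and 2 and 5 without it. With weights the counts were 2 and 1, and 3 and 0.

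The genes that rose further were few. Rxfp1, a receptor for relaxin (chr3:79641611-79737880, minus strand), led those with a mean of at least 100 normalised reads in the 4 libraries. It was level with controls at 1 h (93.8 and 88.7 against 69.7 to 104), 327 and 220.0 at 6 h and 761 and 516 at 10 h (log2 change 1.22 ± 0.22, limma adjusted p = 0.00092). Libraries of the 2 times did not overlap. Asph, which encodes an aspartyl hydroxylase and the calcium-handling proteins junctin and junctate, was at 1494 and 1437 at 6 h and 2639 and 2254 at 10 h, against 918 to 1032 in controls (log2 change 0.73 ± 0.08, adjusted p = 1.5e-05). Sstr1, a somatostatin receptor, went from 197 and 126 to 359 and 244 (controls 105 to 128; adjusted p = 0.0024), and Cbln2, a secreted organizer of synapses, from 418 and 317 to 678 and 541 (controls 237 to 338). The rises of Rxfp1, Asph, Sstr1 and Cbln2 held. Hapln1, a link protein of perineuronal nets, went from 335 and 251 to 592 and 426 (controls 162 to 215; adjusted p = 0.005), but was not called without library A of KCl 10 h (0.14). The same library decided Inhba, the activin A subunit (75.7 and 62.5 to 119 and 91.5; adjusted p = 0.082, and 0.45 without it), and Pmvk (0.0074, and 0.12 without it). Inhba and Pmvk were also not called without library B of KCl 6 h (0.37 and 0.12).

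Of 23 cholesterol synthesis genes 9 rose and 0 fell (median log2 change 0.15; over all genes, 12.9% rose). Of the 23, 19 were already higher than controls at 6 h, and 6 of the rises were further rises. With library weights 6 rose, without library B of KCl 6 h 4 rose, and 3 held. Nsdhl, a sterol dehydrogenase (chrX:72918557-72958514, plus strand), was below controls at 6 h (818 and 839 against 988 to 1166) and above them at 10 h (1422 and 1353; log2 change 0.74 ± 0.09, limma adjusted p = 2e-05). Mvk, mevalonate kinase, went from 346 and 318 to 592 and 468 (controls 346 to 456; adjusted p = 0.00076), and Lss, which closes the sterol rings, from 2185 and 1872 to 2982 and 2771 (controls 1104 to 1331; adjusted p = 0.0016). Hmgcs1, the synthase that makes HMG-CoA, was not called (log2 change 0.10).

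Of 18 genes of GABA-A receptors, the main fast inhibitory receptors, and of GABA synthesis, 7 rose and 0 fell (4 rising further, 2 late, 1 from below), all of them receptor subunits (over all genes, 12.9% rose). With library weights 4 rose, without library B of KCl 6 h 5 rose, and 3 held. Gabrg3, a gamma subunit (chr7:56716465-57387188, minus strand), lay at 217 and 215 at 6 h, below all controls (284 to 371), and at 459.6 and 439 at 10 h, above all of them (log2 change 1.05 ± 0.12, limma adjusted p = 2e-05). Gabra5, an extrasynaptic alpha subunit, went from 1499 and 1501 to 2088 and 1941 (controls 582 to 709; adjusted p = 0.0021). The GABA-synthesizing enzymes Gad1 and Gad2 had log2 changes of -0.04 and -0.16 and were not called.

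Of 22 glutamate receptor genes 8 rose and 0 fell (median log2 change 0.25), 6 of them from below controls (over all genes, 12.9% rose). With library weights 3 rose, and without library B of KCl 6 h 4 rose and 1 fell. Rises held for Grin3a, an NMDA receptor subunit that lowers calcium permeability (477 and 391 to 744 and 708, controls 528 to 635; limma adjusted p = 0.00016), and for Grm7 (258 and 185 to 352 and 318, controls 357 to 463) and Grm8 (82.6 and 98.4 to 154 and 147, controls 86.5 to 117), presynaptic metabotropic receptors that restrain release. Genes of calcium entry and calcium feedback had 6 rises and 3 falls among 41, near the 12.9% and 9.66% over all genes. With weights they had 3 rises and 0 falls, and without library B of KCl 6 h 3 of each. The rises included 3 pore subunits of voltage-gated channels (Cacna1b, 0.56, Cacna1d and Cacna1e). Cacna1e, the R-type pore, rose from 845 and 636 to 1208 and 1042 (controls 1076 to 1373) and held. Cacna1d, an L-type pore, rose from 168 and 119 to 271 and 194 but stayed below all controls (494 to 640.0), and like Cacna1b was not called without library A of KCl 10 h (0.14 and 0.11). Potassium channel genes had 6 rises and 5 falls among 49, also near the shares over all genes, 2 of each with weights, and 3 rises and 5 falls without library B of KCl 6 h. Kcnj9, a G-protein-gated inward rectifier, rose from 101 and 53.3 to 229 and 159 (controls 85.2 to 111; log2 change 1.36 ± 0.27, limma adjusted p = 0.0023), and Kcna1, a voltage-gated channel of axons, fell from 1174 and 1111 to 688 and 827 (controls 170.1 to 209; adjusted p = 0.0024). Both held.

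The largest class returned from below. Ppp1r26, a regulatory subunit of protein phosphatase 1 (chr2:28446800-28455508, plus strand), was at 188 and 117 at 6 h and 453 and 318 at 10 h, still below all controls (595 to 638; log2 change 1.35 ± 0.18, limma adjusted p = 0.00014). Pigg, an enzyme of GPI-anchor synthesis, went from 90.5 and 76.4 to 225 and 174 (controls 269 to 332; log2 change 1.24 ± 0.13, adjusted p = 1.3e-05). Slc16a7, the neuronal monocarboxylate transporter, went from 84.6 and 75.2 to 205 and 160.1 (controls 209.8 to 269.7), and Mlycd, malonyl-CoA decarboxylase, from 105 and 79.9 to 216 and 187 (controls 193 to 214). Slc16a7 remained under the controls, and Mlycd came within reach of them. Nlgn1, the neuroligin of excitatory synapses (chr3:25426215-26332460, minus strand), went from 588 and 514 to 936 and 945 with controls at 913 to 1072 (log2 change 0.77 ± 0.09, adjusted p = 2e-05), and 9.82% of its 6 h deficit was left. Dcc, the netrin receptor, passed from below the controls to their upper edge or beyond (204 and 162 at 6 h, 455 and 377 at 10 h, controls 253 to 379.6; adjusted p = 6.8e-05). The rises of Ppp1r26, Pigg, Slc16a7, Mlycd, Nlgn1 and Dcc held. Zinc-finger genes Zfp700 to Zfp999, a group added after the data were seen, had 22 rises and 5 falls among 111 (over all genes, 12.9% rose). All 22 rises were from below controls, and 72 of the 111 were lower than controls at 6 h. That share of repressed genes is close to the one over all genes, where 1671 of 5362 genes lower at 6 h returned from below. With library weights 4 rose, without library B of KCl 6 h 11 rose, and 2 held.

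Genes moving further down, or moving only late, were fewer. Amy1, an amylase gene, was at 222 and 263 at 6 h and 119 and 135 at 10 h (controls 244 to 391; log2 change -0.93 ± 0.18, limma adjusted p = 0.0018); reads of near-identical amylase genes may be shared with it. Neurod2, a transcription factor of excitatory neurons, was high at 1 h (2063 and 1980.3), below all controls at 6 h (1399 and 1197 against 1429 to 1711) and lower again at 10 h (912 and 860.4; adjusted p = 0.00046). Camk2n1, an inhibitor of CaM kinase II, went from 1569 and 1488 to 1134 and 1078 (controls 1791 to 2169; adjusted p = 0.0014). Traip, a ubiquitin ligase of DNA repair, fell late, from 135 and 226 to 80.7 and 85.0 (controls 161 to 190.4), and Pnpla3, a lipid-droplet lipase, rose late, from 118 and 133 to 253 and 221 (controls 127 to 162; adjusted p = 0.00036). All 5 held. Vamp1, a vesicle SNARE, came back into the control range, with 273 and 266 at 6 h and 172 and 157 at 10 h against 155 to 184 in controls (adjusted p = 0.00082).

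Other lists had few calls. Presynaptic release genes had 4 rises and 2 falls among 36, but 0 rises with weights and 0 without library B of KCl 6 h. Perineuronal net and matrix genes had 3 rises and 1 fall among 18 (2 and 1 with weights), and genes of chromatin and the transcription machinery 3 and 3 among 30 (1 and 1 with weights, 1 and 4 without library B of KCl 6 h). Alpha-arrestins with Btg and FoxO-linked genes had 2 rises and 3 falls among 22 (0 and 1 with weights, 2 and 1 without library B of KCl 6 h), and genes of glycolysis and the hypoxia response 2 and 2 among 25 (1 and 1 with weights, 1 and 2 without that library). Of 32 proteasome genes 4 fell and 0 rose, 1 fell with weights and 1 without library B of KCl 6 h, and no call in that list held.

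**Figure D3:**
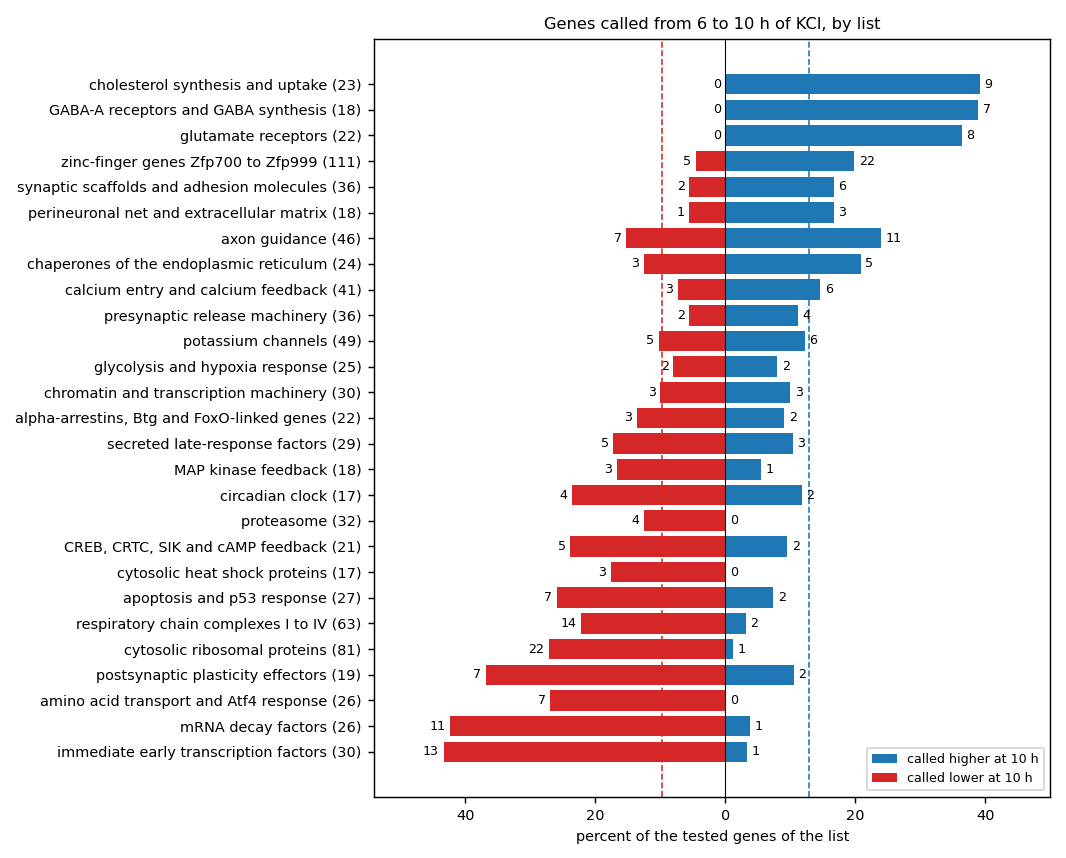
Share of the tested genes of each list (number in brackets) called higher (blue, right) or lower (red, left) at KCl 10 h than at 6 h, in percent, with the number of genes at each bar and cell type markers left out. Dashed lines mark the shares over all genes tested, 12.9% higher and 9.66% lower; immediate early transcription factors (13 of 30 lower) and mRNA decay factors (11 of 26 lower) have long bars to the left, and cholesterol synthesis (9 of 23 higher), GABA-A receptors (7 of 18) and glutamate receptors (8 of 22) to the right.

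The same interval was compared under BDNF and in controls, whose 6 and 10 h libraries are not among the KCl libraries. The difference between the KCl change and the BDNF change was called for 1242 genes (7.66%), 1119 of them among the 3651 called under KCl. The difference from the control change was called for 661 genes (4.08%), 649 of them among the 3651. Both differences contain the KCl change itself, so these overlaps are partly built in and carry no test. Genes returning from above under KCl had a median log2 change of 0.003 under BDNF and 0.008 in controls, and those returning from below 0.02 and -0.01. Fosb fell by 2.04 on the log2 scale under KCl, while under BDNF it was at 6.31 and 7.32 at 6 h and 5.65 and 9.84 at 10 h (difference between the changes -2.16, limma adjusted p = 0.0037). These BDNF values all lay within the control range of Fosb given above, so under BDNF it was already at the control level at 6 h. Gabrg3 rose under KCl and had log2 changes of -0.13 under BDNF and -0.15 in controls (difference from BDNF 1.18, adjusted p = 0.0013; adjusted p = 0.0039 against controls). Of the 35 genes called under BDNF, 10 were also called under KCl, where 22.5% of all genes were called, 6 in the same direction and 4 in opposite directions; these 10 were looked up after their values were seen. The pentraxin Nptx1, the somatostatin receptor Sstr2 and the Nogo receptor relative Rtn4rl1 fell under both (KCl -0.99, -0.59 and -0.58; BDNF -1.05, -0.58 and -0.54), and Lingo2 rose under both (0.66 and 0.62). The ryanodine receptor Ryr3 rose under KCl (0.85) and fell under BDNF (-0.70).

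**Figure D4:**
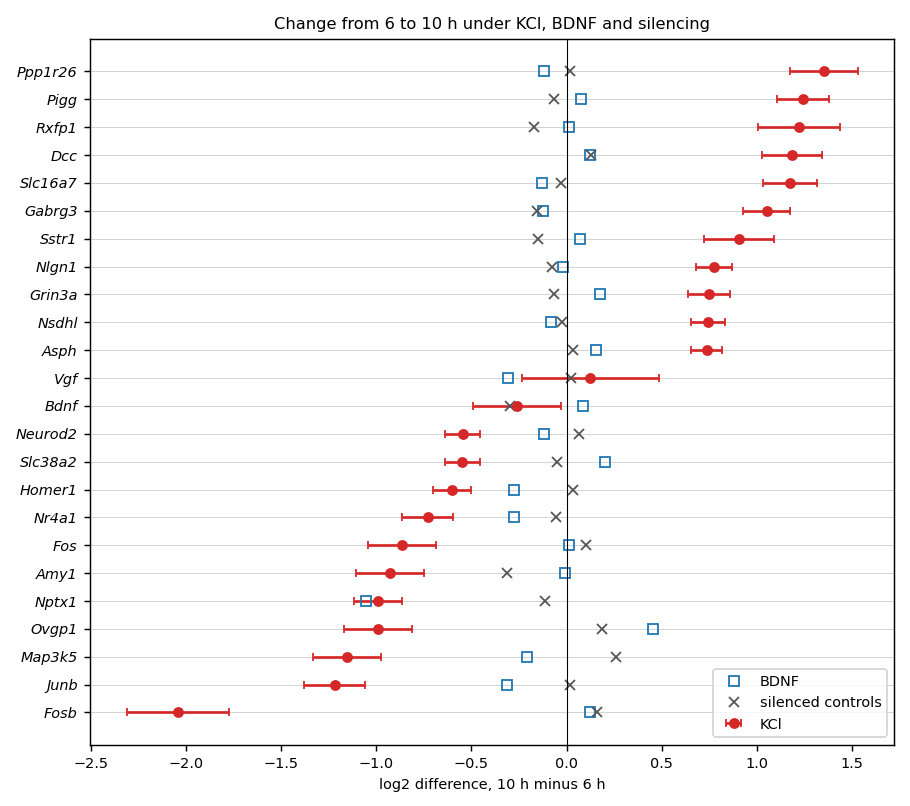
Log2 difference between 10 h and 6 h (x axis) for 24 genes under KCl (red; bars are standard errors, n = 2 against 2), under BDNF (open squares) and in silenced controls (crosses). For most genes squares and crosses lie near zero while the KCl points spread from -2.04 for Fosb to 1.35 for Ppp1r26; Nptx1 fell under both stimuli.

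Chromatin accessibility gave no counterpart at this depth. Of 56383 ATAC peaks tested between KCl 10 h and KCl 6 h, 0 were called (0.0%; edgeR, adjusted p below 0.1), 3344 had an unadjusted p below 0.05, and 5 were called with limma and 0 with DESeq2. Library 2 of KCl 6 h held 1.24 M reads in peaks, against 2.99 to 4.21 M in the other 3 KCl libraries of 6 and 10 h. Without library 1 of KCl 6 h 23 peaks were called, and without library 2 of KCl 10 h 1 was. Promoter peaks (1000 bp before to 100 bp after a start) of genes returning from above had a median log2 change of -0.04 and those returning from below -0.02, against -0.03 over all tested genes with such a peak. The Fosb promoter peak (chr7:19310003-19310487) changed by -0.32 ± 0.24 (edgeR adjusted p = 0.92), while its transcript fell by 2.04 on the log2 scale. At the Nr4a1 promoter (chr15:101266257-101267037) accessibility was above controls at both times (log2 1.02 at 6 h and 1.09 at 10 h, edgeR adjusted p = 0.00095 and 8.2e-05) and changed by 0.07 between them.

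Long genes rose more often than short ones. Among protein-coding genes, 386 of 2127 spanning over 100 kb rose (18.1%) and 188 fell (8.84%), while of 3165 genes under 10 kb 334 rose (10.6%) and 347 fell. With library weights 151 rose and 51 fell among the long genes, and 106 and 79 among the short. The median log2 change of the long genes was 0.06, and 0.01 without library B of KCl 6 h. The median span was 58.9 kb for genes rising further, 30.4 kb for those returning from below, 22.5 kb for those returning from above and 25.6 kb over all protein-coding genes tested. The AU-rich pentamer ATTTA was read from the 3′UTR of the transcript with the longest coding part in each gene. It was found in 68.6% of genes returning from above, 68.5% of those returning from below and 67.4% of all. The spread was a few percentage points.

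Markers of cell types were followed in the same libraries. Of 9 oligodendrocyte-lineage markers 6 rose and 0 fell, all from below controls (over all genes, 12.9% rose). With library weights 1 rose, without library B of KCl 6 h 2 rose, and 1 held. The summed level of the list was 7654 and 7220 at 6 h and 7854 and 7033 at 10 h, with controls at 6474 to 7001. Of 17 neuronal markers 2 rose and 3 fell, of 14 astrocyte and radial glial markers 1 rose and 1 fell, and of 12 proliferation markers 3 rose and 1 fell. Without library B of KCl 6 h these counts were 0 and 2, 0 and 0, and 2 and 0, and with weights 1 and 1, 0 and 0, and 1 and 0. Of 8 microglial and 11 vascular and meningeal markers 0 were called with limma. Summed microglial markers were 161 to 260.5 normalised reads in the 4 libraries, and neuronal markers 82478 to 93040.4. The part of a change in cell numbers in the results was not tested.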

How the data were processed

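Polyadenylated RNA was sequenced in 18 libraries and accessible chromatin (ATAC-seq) in the others, with 2 libraries per treatment and time. The deposited RNA table holds signal values, that is, gene counts that the authors divided by DESeq2 size factors. Whole reads came back for 100% of values within 0.01 when the values were multiplied by the step of each library. The deposited ATAC table holds raw counts that the authors obtained over peaks. The submitters' processing notes name Trimmomatic, TopHat2, Bowtie2, MACS2, DiffBind, DESeq2 and mm10, while the counting program for RNA is not given in the sources used here, nor is a strand setting, so reads of overlapping and antisense genes cannot be told apart. Letters A and B of the RNA columns name libraries of a group and tie them to no further label.

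Of 26709 genes, 26162 were named from GENCODE M21. Genes with a mean of at least 10 over the 18 libraries (16209) were tested with limma 3.58.1 (R 4.3.3, trend and robust options) on log2(value + 1), with 7 levels (the 6 controls as 1 level, and 9 levels where control times were compared), and called at a Benjamini-Hochberg adjusted p below 0.1. Fold changes on this scale understate those of low genes. Peaks were tested with edgeR 4.0.16 (quasi-likelihood, LOESS offsets). Alternatives were edgeR and DESeq2 1.42.0 on recovered reads, TMM scaling, other pseudocounts, filters and thresholds, and a block for the library letter. Further alternatives left out single libraries of 6 and 10 h that enter the comparison in question, or used library weights, which were added after the data were seen. Scripts were tested on simulated data. Coordinates are 1-based on GRCm38 (mm10), and promoters are RefSeq entries of GRCm38.p6. The medians of all genes shifted by 0.001 with the authors' factors and 0.003 with TMM.

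The comparison and the gene lists were chosen with earlier results of these data known. Named genes had a mean of at least 100 normalised reads in the 4 KCl libraries of 6 and 10 h. They were the 8 largest called changes in each of the classes returning from above, rising further, returning from below and falling further, the 4 largest late rises and late falls, up to 4 called members of each list, and 12 genes given whatever their values (Fos, Fosb, Npas4, Nr4a1, Arc, Bdnf, Vgf, Nptx2, Inhba, Acan, Txnip and Arrdc3). Gm42418 and any other gene named were chosen after their values were seen. The lists for zinc-finger genes, ribosomal proteins and respiratory subunits were added after the files were seen. A few genes are not reported here.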

Additional observations from a re-analysis of the deposited data

Results flagged for a closer look

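Single control libraries lay apart from the other 5 for 7 of the 131 named genes, judged by the gap to the nearest library against the range of the 6, a distance that chance gives in about 1 in 20 groups. Library A of the 1 h controls was low for Sesn3 (277 normalised reads, the others 346 to 382), Psme4 (671, the others 746 to 789) and Dcc (253, the others 338 to 379.6), and library B of the same time was high for Crem (144, the others 105 to 119). Library A of the 10 h controls was low for Bdnf (38.5, the others 59.1 to 65.1), Txnip (519, the others 609.9 to 663) and Grm7 (357, the others 423 to 463).

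For 59 of the 131 named genes the change from 6 to 10 h differed between KCl and BDNF (limma, adjusted p below 0.1 for the difference), against 7.66% of all genes tested. Named genes were chosen mainly by their called KCl change, which is part of this difference. The count is therefore a description and carries no test. Values are the KCl change minus the BDNF change on the log2 scale, and the 2 changes share no library. The difference was below zero for 31 genes. It was strongest for Fosb (-2.16), Ovgp1 (-1.44), Hspb8 (-1.44), Dbpht2 (-1.30), Fst (-1.15), Traip (-1.10), Map3k5 (-0.94), Amy1 (-0.92) and Junb (-0.90). Smaller differences below zero were found for Fos (-0.87), Vamp1 (-0.85), Slc38a2 (-0.75), Snhg20 (-0.74), Errfi1 (-0.73), Sesn3 (-0.73), Ccng2 (-0.70), Crem (-0.70), Bcl2l11 (-0.65), Rc3h1 (-0.64), Lrrtm2 (-0.63), Zc3h12c (-0.60), Ackr1 (-0.56), Camk2n1 (-0.53), Herpud1 (-0.48), Psmb7 (-0.45), Crebbp (-0.44), Neurod2 (-0.43), Dnajb4 (-0.43), Elavl1 (-0.43), Psme4 (-0.42) and Psmd11 (-0.32). The difference was above zero for 28 genes. It was 1 or more for Per3 (1.01), Dcc (1.06), Mlycd (1.12), Mvd (1.13), Trpm3 (1.13), Dcp1b (1.16), Pigg (1.16), Gabrg3 (1.18), Rxfp1 (1.21), Mfsd4b4 (1.28), Slc16a7 (1.30), Slc2a6 (1.32) and Ppp1r26 (1.47). It was smaller for Grin3a (0.57), Asph (0.58), Cacna1b (0.59), Tnc (0.62), Bid (0.63), Mvk (0.69), Rora (0.73), Nlgn1 (0.79), Nsdhl (0.83), Cacna1d (0.83), Hapln1 (0.83), Sstr1 (0.84), Pnpla3 (0.93), Bcl6 (0.95) and Cacna1e (0.97).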

How the results depend on the processing

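With 2 libraries per group, counts of calls followed the libraries. With each KCl library of 6 and 10 h left out in turn, the number of genes called between KCl 6 h and 10 h ranged from 1178 (without library A of 10 h) to 5044 (without library A of 6 h), genes returning from above from 348 to 1771, rising further from 26 to 162, returning from below from 602 to 2165, and falling further from 51 to 90. With library weights these counts were 1107, 296, 28, 626 and 21, at an adjusted p below 0.01 they were 1027, 268, 22, 577 and 16, and with only the 4 KCl libraries in the fit 359 genes were called. DESeq2 gave 65 genes falling further. Differences from the control change numbered 278 with weights, 42 at an adjusted p below 0.01, 398 with no filter on low values, and 105 to 2572 with a library left out. Differences from the BDNF change numbered 589 with weights, 117 at an adjusted p below 0.01, and 333 to 3153 with a library left out. Peaks called were 5 with limma and 0 to 23 with a library left out. A stricter threshold can only lower a count. For the other settings, among them the fits with fewer libraries, the cause of the difference was not tested. Controls gave 0 calls between 6 and 10 h with limma, edgeR and DESeq2 and with each control library of 6 and 10 h left out in turn. Median shares left ranged from 62.4% to 84.8% for induced and from 55.9% to 70.1% for repressed genes. Over 131 named genes and 15 alternatives, 1659 of 1963 values stayed called or stayed not called, 299 kept direction and lost the call, and 5 gained it. Among genes called with all libraries, 0 changed direction. Direction was not compared where a gene was called neither with all libraries nor in the alternative.

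No label states whether the letters pair libraries, and a correlation across genes cannot decide it. Deviations of libraries A at KCl 6 h and 10 h correlated at 0.195, and over the 36 pairs of groups from -0.315 to 0.418 with a median of 0.065 (across genes). A replicate block on the letter gave 3821 calls, of which 1247 returned from above, 150 rose further, 1751 returned from below and 115 fell further. With the replicate block, differences numbered 806 from the control change and 1361 from the BDNF change, and controls gave 0 calls. No named gene lost its call under the block.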
